A study of Mus musculus with 2 samples.

Results

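T and NK lymphocytes of mouse pancreatic islets were the barcodes that carried RNA of the CD3 chains or of Nkg7, and they numbered 233 of 8449 barcodes kept after filtering and of 20213 barcodes in all. The library labelled BcBKO held 160 of them and the flox/flox library held 73. BcBKO mice carried Pdx1-cre and were meant to lack BAF60C in beta cells, and the comparison mice were flox/flox. Smarcd3 encodes BAF60C, which belongs to the SWI/SNF (BAF) family of chromatin remodellers. Each group was 1 library from pooled islets of at least 3 mice, which leaves no replicate and no test, so the intervals below cover counting error alone. The labels give no ages, sexes or diets. Pdx1 is active in pancreatic progenitors of the embryo as well as in beta cells. Islets had been digested to single cells and captured in droplets, where every RNA molecule received a unique molecular identifier (UMI) near its 3′ end.

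The members were chosen from measured values. Barcodes were kept at 500 or more genes, 1000 or more UMIs, at most 20% mitochondrial UMIs and under 25% insulin UMIs. Of these, members had at least 2 UMIs over Cd3d, Cd3e, Cd3g and Nkg7, none of the B-cell genes Cd79a and Ms4a1, and at most 2 of the macrophage genes C1qa, C1qb and C1qc. The levels of these genes are therefore a description and no finding. Just inside the threshold, 14 members of the library labelled BcBKO and 5 of the flox/flox library had exactly 2 UMIs of the selecting genes. Just outside it, 12 and 7 barcodes had 1 UMI and otherwise met the rule.

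T cells recognise peptides on other cells through a clonal receptor of an alpha and a beta chain, or a gamma and a delta chain. This receptor signals through the CD3 chains and the zeta chain, and the coreceptors CD8 and CD4 read MHC class I and class II. Natural killer (NK) cells lack the receptor and CD3 and use germline-encoded receptors such as NKp46 (Ncr1). Naive T cells circulate through lymph nodes with the help of CCR7, whereas effector and memory T cells make chemokines and granule proteins and can stay in tissue. Islets of healthy mice hold few lymphocytes beside resident macrophages, and T cells that enter islets are best known from autoimmune diabetes.

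The CD3 genes that define these cells lie side by side on mouse chromosome 9. On GRCm38, Cd3g (chr9:44969572-44980431, minus strand) and Cd3d (chr9:44981786-44987339, plus strand) are transcribed away from each other from start sites 1355 bases apart. With Cd3e the cluster spans 40056 bases. The 120 bases before each start site, from RefSeq (GRCm38.p6), are shown because Cd3d and Cd3g chose most members, together with those of Ifng, the interferon-gamma gene, as a gene that the rule did not use. Each sequence runs 5′ to 3′ on the gene's own strand, and capitals mark matches to TATAAA and GGAA (the ETS core) on either strand.
Cd3d, chr9:44981666-44981785 (plus): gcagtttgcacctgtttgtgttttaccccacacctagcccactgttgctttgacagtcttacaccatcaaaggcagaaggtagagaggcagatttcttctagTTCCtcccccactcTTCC
Cd3g, chr9:44980432-44980551 (minus): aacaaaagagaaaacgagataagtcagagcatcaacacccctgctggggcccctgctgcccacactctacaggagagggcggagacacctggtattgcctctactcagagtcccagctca
Ifng, chr10:118440926-118441045 (plus): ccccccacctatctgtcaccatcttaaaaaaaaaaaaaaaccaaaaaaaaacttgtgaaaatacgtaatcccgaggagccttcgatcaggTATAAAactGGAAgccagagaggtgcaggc
TATAAA was found in the Ifng window and not in those of Cd3d and Cd3g, and 6.34% of 32851 RefSeq promoter windows of the same length hold it. GGAA is common, with a match in 73.4% of these windows, and it was found 2 times in the Cd3d window, 1 time in that of Ifng and not in that of Cd3g. These matches describe the letters and nothing about binding.

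The label was checked with markers that the rule did not use. All 12 further T-cell markers were seen in both libraries, and at least 1 of them in 159 of 160 and 73 of 73 members. Of the 11 NK markers, 11 and 10 were seen. Neutrophil markers had no UMI, mast-cell markers 2 and 0 UMIs, dendritic-cell markers 4 and 0, and macrophage markers 21 and 9. Endothelial markers had 692 and 148 UMIs (876 and 596 CPM) in 33 and 17 members, of which 367 and 114 were in 1 member of each library, and mural markers had 164 and 47 UMIs. The NK markers summed to 518 and 596 CPM. B-cell markers had 129 and 41 UMIs, of which 84 and 28 were of the immunoglobulin gene Ighm, while Cd79a and Ms4a1 were at 0, as the rule required. RNA of beta cells was present in every member, with a median of 7.18% and 7.60% of UMIs from Ins1 and Ins2. RNA of other islet cells differed between the libraries. The alpha-cell markers Gcg and Ttr summed to 18724 CPM (UMIs per 1000000 UMIs summed over members) in the library labelled BcBKO and 2062 CPM in the flox/flox library, and the 8 acinar markers to 211 and 1816 CPM. Acinar RNA was seen in 89 of 160 and 73 of 73 members, and its part in other results was not tested.

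Smarcd3 UMIs were not lower in beta-cell barcodes of the library labelled BcBKO. In beta-cell barcodes, those with 25% or more insulin UMIs, the library labelled BcBKO had 101 Smarcd3 UMIs or 0.705 CPM, and the flox/flox library 53 UMIs or 0.401 CPM. The 3′ counts do not show whether a floxed exon is missing, so they cannot check the label. Lymphocytes had 1 UMI of Smarcd3 in the library labelled BcBKO and 0 in the flox/flox library, where 3 UMIs would be 12.1 CPM. The paralogues were low too. Smarcd2, the form best known from blood cells, had 29 UMIs (36.7 CPM) in members of the library labelled BcBKO and 3 UMIs (12.1 CPM) in those of the flox/flox library, and Smarcd1 had 11 and 3 UMIs. The interval of the Smarcd2 ratio, 0.942 to 15.6, included 1.

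Depth was modest. The libraries held 178647270 and 167670996 UMIs in all, of which members gave 790254 and 248344. Members had a median of 3607 UMIs and 1190.5 genes in the library labelled BcBKO, and of 2759 UMIs and 1145 genes in the flox/flox library. Shares of cells with a UMI are therefore also given after thinning every cell to 1000 UMIs, which no member fell below. The 2 libraries shared 23 barcodes, of which 0 were members. Scrublet called 7 and 2 members as doublets. In 7 and 1 members, 5% or more of the UMIs came from Gcg, Sst, Ppy and Pyy.

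Lymphocytes made up a larger part of the library labelled BcBKO. There, members were 3.71% of the 4313 kept barcodes (exact binomial 95% interval 3.17 to 4.32), against 1.76% of 4136 in the flox/flox library (1.39 to 2.21). The ratio of the shares was 2.10 (1.58 to 2.81). The 2 intervals of the shares did not overlap, but with 1 library per group the spread between mice is unknown. B cells, counted by Cd79a and Ms4a1, differed the same way, with 172 and 36 barcodes at median depths of 2252.5 and 16588 UMIs, while macrophages, counted by C1q genes, numbered 468 and 555. Among barcodes of T, NK and B cells, macrophages and dendritic cells, members were 18.4% and 10.2%. The share follows how islets were picked, digested and loaded as well as the tissue, and these cannot be told apart here.

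Most members carried RNA of the CD3 genes, which follows in part from a rule that selected on them. At least 1 UMI of Cd3d, Cd3e or Cd3g was seen in 149 of 160 members (93.1%) in the library labelled BcBKO and in 70 of 73 (95.9%) in the flox/flox library. Cd3d and Cd3g were seen together in 122 and 47 members, and all 3 genes in 66 and 24. The constant regions of the alpha-beta receptor, Trac, Trbc1 or Trbc2, were seen in 156 (97.5%) and 72 (98.6%) members. The delta constant region Trdc was seen in 8 and 3.

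**Figure D1:**
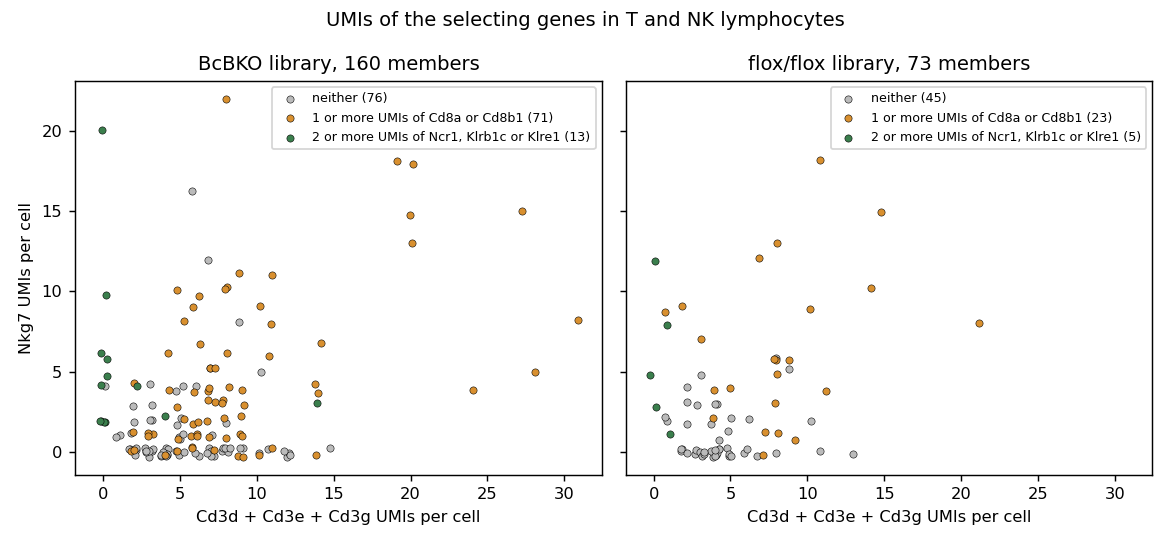
UMIs of Nkg7 (vertical axis) against summed UMIs of the CD3 genes (horizontal axis) in each member of the BcBKO library (left) and of the flox/flox library (right), with small random offsets so that points do not cover each other. Members with 2 or more UMIs of NK receptors mostly lie at 0 or few CD3 UMIs, and CD8-bearing members spread to the highest values of both axes.

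No receptor chain that could be compared differed 2-fold between the libraries. Trbc2 had 868 CPM in members of the library labelled BcBKO and 962 CPM in members of the flox/flox library, a ratio of 0.902 (0.777 to 1.05). Trac had 373 and 511 CPM (ratio 0.730, 0.591 to 0.906). Trbc1 had 604 and 431 CPM, a ratio of 1.40 (1.13 to 1.74). The difference in Trbc1 lay in T cells without CD8, where it had 714 and 302 CPM (2.36, 1.67 to 3.42). Trbc2 ran the other way in the same cells, at 819 and 1090 CPM (0.752, 0.609 to 0.931). In CD8 cells Trbc1 had 547 and 558 CPM (0.980, 0.738 to 1.32). Trbc1 and Trbc2 encode near-identical beta constant regions, and whether reads were split between them was not tested. Cd247, the zeta chain, had 101 and 84.6 CPM (1.20, 0.733 to 2.04).

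CD8 cells were the largest group that a coreceptor marked. Cd8a or Cd8b1 was seen in 72 of 160 members (45.0%, 37.1 to 53.1) in the library labelled BcBKO and in 23 of 73 (31.5%, 21.1 to 43.4) in the flox/flox library. Thinned to 1000 UMIs, the shares were 27.9% and 24.3%. Cd4, which gives few UMIs, was seen in 16 and 8 members and in none together with CD8. This left 61 (38.1%) and 39 (53.4%) members with CD3 and no coreceptor UMI. At this depth they cannot be divided further. In endothelial barcodes, which should lack it, 2 of 1501 and 2 of 1756 had a UMI of Cd8b1, at median depths of 5080 and 5388.5 UMIs.

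**Figure D2:**
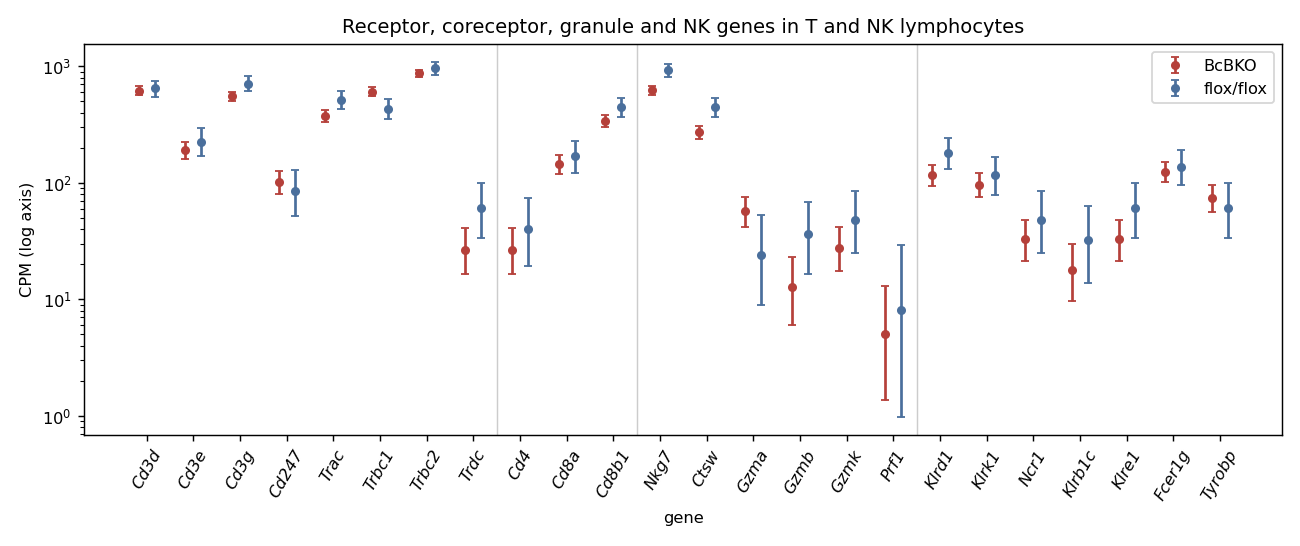
Level in CPM (log axis) of genes of the T-cell receptor, the coreceptors, cytotoxic granules and NK cells in members of the BcBKO library (left point of each pair) and of the flox/flox library (right point), with exact Poisson 95% intervals. Receptor chains sit close together in both libraries, while Nkg7 and Ctsw are lower in the BcBKO library and granzymes and Prf1 are low in both.

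The members without CD3 carried NK genes. They could meet the rule only with 2 or more UMIs of Nkg7, a gene of NK and cytotoxic cells, so this character is partly set by the rule. They were 11 of 160 in the library labelled BcBKO and 3 of 73 in the flox/flox library. Ncr1, Klrb1c or Klre1 was seen in 10 and 3 of them. In these cells Fcer1g, a signalling adaptor of NK receptors, had 1436 and 1535 CPM, and Tyrobp, which encodes the adaptor DAP12, had 978 and 1023 CPM. In CD8 cells Fcer1g had 2.39 and 35.4 CPM. The activating receptor Klrk1 (NKG2D) had 853 and 1023 CPM in members without CD3, and the chemokine Xcl1, which attracts cross-presenting dendritic cells, 1166 and 921 CPM. Trbc1, whose constant region NK cells are known to transcribe unrearranged, was seen in 8 of 11 and 3 of 3. With 3 cells in the flox/flox library no difference between libraries is read from them. Over all members, NK receptors were seen in 17 (10.6%) and 13 (17.8%), with 5.85% and 9.83% after thinning, so that 10 of 17 and 3 of 13 such members lacked CD3 and the others had it.

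The CD8 cells, all of which had CD3, differed between the libraries most plainly in Ccl5. Ccl5 encodes the chemokine RANTES that memory and effector CD8 cells store. It was seen in 37 of 72 CD8 cells (51.4%, 39.3 to 63.3) in the library labelled BcBKO and in 22 of 23 (95.7%, 78.1 to 99.9) in the flox/flox library. Per CD8 cell, the UMIs of Ccl5 ran from 0 to 102 with a median of 1.0 in the library labelled BcBKO, and from 0 to 77 with a median of 36.0 in the flox/flox library. The cells overlapped in range, but 13 of 72 and 17 of 23 had 20 or more UMIs. The level was 1986 and 7397 CPM, a ratio of 0.269 (0.244 to 0.296). Thinned to 1000 UMIs, 38.0% and 94.0% of the CD8 cells would show it. In endothelial barcodes 1.33% and 0.456% had a Ccl5 UMI, in beta-cell barcodes 3.41% and 1.08%, and in macrophages 15.8% and 9.55%.

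Several other genes of effector and resident cells were also lower in these CD8 cells, and some were not. Ccl4, a chemokine of activated T and NK cells, had 224 and 1134 CPM (ratio 0.198, 0.150 to 0.260), although 48 of its 128 UMIs in the flox/flox library came from 1 cell. The chemokine receptor Cxcr3 had 52.5 and 142 CPM (0.371, 0.186 to 0.755). Rgs1, a signalling regulator of tissue-resident T cells, had 115 and 310 CPM (0.370, 0.234 to 0.589). The integrin chain Itgb1 had 122 and 452 CPM (0.270, 0.179 to 0.405). Nkg7, which the rule used, had 805 and 1355 CPM. Xcl1 ran the other way at 212 and 115 CPM (1.85, 1.03 to 3.60), with 22 of 89 UMIs in 1 cell of the library labelled BcBKO, and Cd69, an early activation and residency marker, had 337 and 266 CPM with an interval that included 1 (1.27, 0.849 to 1.95). The intervals of Cxcr6 (0.509, 0.215 to 1.30), Klrd1 (0.620, 0.359 to 1.11) and Ly6c2 (0.823, 0.661 to 1.03) included 1 too.

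Genes of naive T cells did not share a direction in the CD8 cells. Ccr7 or Lef1 was seen in 40 of 72 in the library labelled BcBKO (55.6%, 43.4 to 67.3) and in 8 of 23 in the flox/flox library (34.8%, 16.4 to 57.3), with intervals that overlapped. Ccr7 was seen in 23 and 4 CD8 cells, at 93.1 and 35.4 CPM (2.63, 0.948 to 10.1). Lef1, a transcription factor of naive and early memory T cells, was seen in 36 and 6, at 146 and 70.9 CPM (2.05, 0.980 to 4.97). The intervals for Ccr7 and Lef1 included 1. Background of Lef1 was low in endothelial barcodes, with a UMI in 5 of 1501 and 16 of 1756. Ccr7 was also seen in B-cell barcodes, in 72 of 172 and 6 of 36. Tcf7, which acts with Lef1, had 105 and 133 CPM (0.791, 0.432 to 1.53), and S1pr1 90.7 and 186 CPM (0.488, 0.279 to 0.875).

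Naive and effector genes were read together in each CD8 cell. In the library labelled BcBKO, 23 of 72 CD8 cells (31.9%, 21.4 to 44.0) had a UMI of Ccr7 or Lef1 and none of Ccl5 or Cxcr6. In the flox/flox library 0 of 23 did, with an interval that reached 14.8%. This 0 follows from the level of Ccl5, since all 23 had Ccl5 or Cxcr6, against 42 of 72 in the library labelled BcBKO. Another 17 and 8 cells had UMIs of both groups, 25 and 15 cells had Ccl5 or Cxcr6 alone, and 7 and 0 had neither. Thinned to 1000 UMIs, the naive pattern would be seen in 17.9% and 1.55% of CD8 cells. The pattern was seen at a like rate without the called doublets, in 22 of 68 and 0 of 22 CD8 cells. Among T cells without CD8 it was seen in 15 of 77 (19.5%) and 2 of 47 (4.26%). The split into these genes was chosen after their values had been seen.

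**Figure D3:**
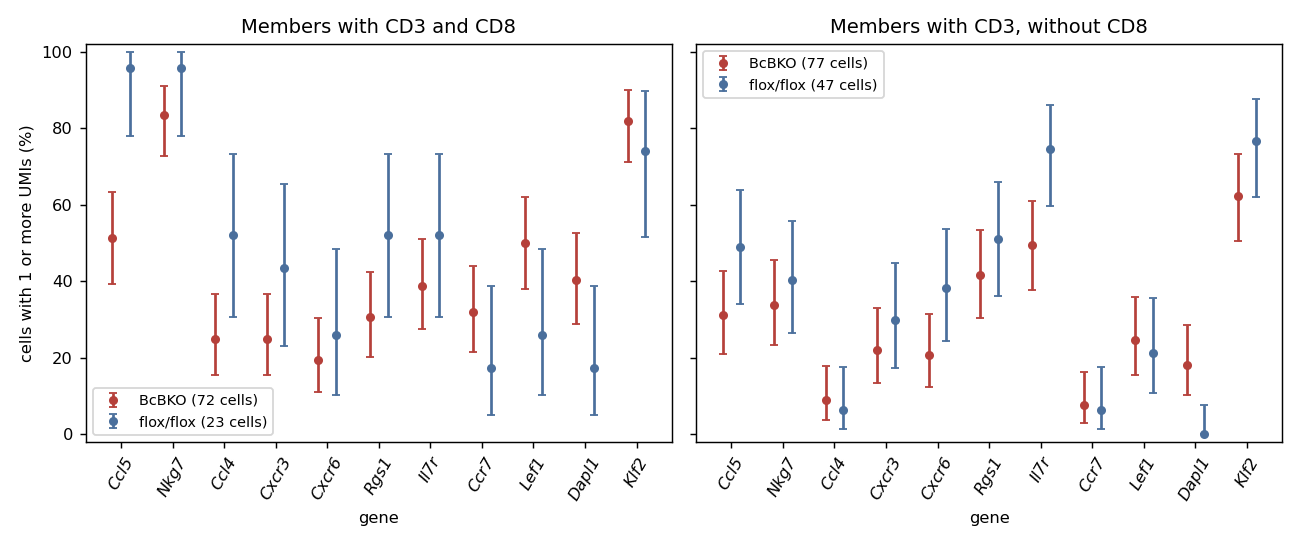
Share of cells (%) with 1 or more UMIs of each gene among CD3-bearing members with CD8 (left panel) and without CD8 (right panel), for the BcBKO library (left point of each pair) and the flox/flox library (right point), with exact binomial 95% intervals. Among CD8 cells the intervals of Ccl5 do not overlap between libraries, and those of Ccr7, Lef1 and Dapl1 do.

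Il7r was lower in the library labelled BcBKO. It encodes the receptor for interleukin 7, which naive and memory T cells need to survive. Il7r (chr15:9505788-9530176, minus strand) was seen in 68 of 160 members (42.5%) in the library labelled BcBKO and in 48 of 73 (65.8%) in the flox/flox library, at 165 and 572 CPM, a log2 ratio of -1.74. No cell held more than 6 and 9 of its UMIs, and without the highest cell of each library the log2 ratio was -1.72. The ratio was 0.293 (0.192 to 0.450) in CD8 cells and 0.316 (0.231 to 0.430) in T cells without CD8. Over all members, the naive and recirculating list had a median log2 ratio of -0.54 over 7 genes compared. In it Lef1 (0.42) and Satb1 (0.13), an organiser of T-cell chromatin, were above 0, and Il7r and S1pr1 (-0.97), which lets T cells leave lymphoid organs, were lowest. Klf2, which maintains S1pr1, had 811 and 1240 CPM, and its difference lay in T cells without CD8, at 653 and 1424 CPM (0.458, 0.374 to 0.562), against 962 and 1028 CPM in CD8 cells.

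Across all members, 1382 genes had 100 CPM or more in either library and 20 UMIs or more over both. The log2 ratio is of CPM plus 10, BcBKO over flox/flox, and understates the difference of low genes. Of these genes, 23 (1.66%) were 2-fold or more higher in the library labelled BcBKO and 54 (3.91%) 2-fold or more lower, 77 (5.57%) in all. Among the 1169 genes that could be named by size, which leaves out hormone, acinar and other genes open to free RNA, 12 (1.03%) were higher and 33 (2.82%) lower. The median log2 ratio was -0.10 and 40.1% of genes were above 0. With TMM scaling, 33 genes were higher and 30 lower, the median was 0.10 and 58.8% were above 0. Ratios near 0 therefore have no settled sign.

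Many of the highest ratios came from single cells. Cxcl9, a chemokine that interferon-gamma induces in myeloid cells, had 551 UMIs in 1 member of the library labelled BcBKO and 0 UMIs in all others of both libraries. That member had 14517 UMIs in all, among them 35 of Apoe and 21 and 2 of the MHC class II genes Cd74 and H2-Aa. It had 0 of the macrophage genes Lyz2 and C1qa, of which the rule limited C1qa. The haemoglobin genes followed the same form. Of 1818 and 13 UMIs of Hbb-bs, 1784 in the library labelled BcBKO were in 1 member. Without the highest cell the log2 ratio of Hbb-bs was -0.14, that of Hba-a1 -0.29, that of Hba-a2 0.10 and that of Hbb-bt 0.59.

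The higher genes that many cells shared were few. Dapl1 (chr2:59484653-59505020, plus strand) was seen in 44 of 160 (27.5%) and 4 of 73 (5.48%) members, at 153 and 24.2 CPM, a log2 ratio of 2.26 (ratio interval 2.83 to 17.6). Most of it lay in CD8 cells, where it had 104 and 6 UMIs, or 248 and 53.2 CPM, with 28 of the 104 in 1 cell. The excess was not particular to lymphocytes. Dapl1 had 179 and 113 CPM in beta-cell barcodes, 62.3 and 21.3 in macrophages, 19.5 and 3.47 in B cells. Endothelial barcodes had 9.41 and 7.04 CPM. The part of free RNA in its UMIs was not tested. Cks2, a partner of cell-cycle kinases, was seen in 39 and 9 members at 137 and 36.2 CPM (log2 ratio 1.67). Traf1, an adaptor of tumour necrosis factor receptors, was seen in 50 and 10 members at 114 and 40.3 CPM (1.30). Chka, choline kinase alpha, had 108 and 44.3 CPM (1.11), and the cohesin subunit Smc1a 116 and 52.3 CPM (1.02).

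Of the 10 lower genes named by size, 6 were seen in 20 or more cells of each library. Il17a was an exception, with 18 and 29 UMIs, of which 15 and all 29 were in 1 cell of each library. Itgb1 was seen in 67 (41.9%) and 45 (61.6%) members at 192 and 511 CPM (log2 ratio -1.37). Got1, the cytosolic aspartate aminotransferase, was seen in 34 and 26 members at 55.7 and 201 CPM (-1.69). Hivep2, a zinc-finger transcription factor, had 29.1 and 105 CPM (-1.55) and the ubiquitin ligase Rnf138 had 59.5 and 185 CPM (-1.49). Hilpda, a lipid-droplet protein induced by low oxygen, had 46.8 and 133 CPM (-1.33), the LIM-domain protein Lmo4 54.4 and 149 CPM (-1.30), and Rinl 53.1 and 145 CPM (-1.30). Ifit1, an interferon-induced gene, had 38.0 and 113 CPM, but 20 of its 28 UMIs in the flox/flox library were in 1 cell and its log2 ratio without the highest cells was -0.18.

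**Figure D4:**
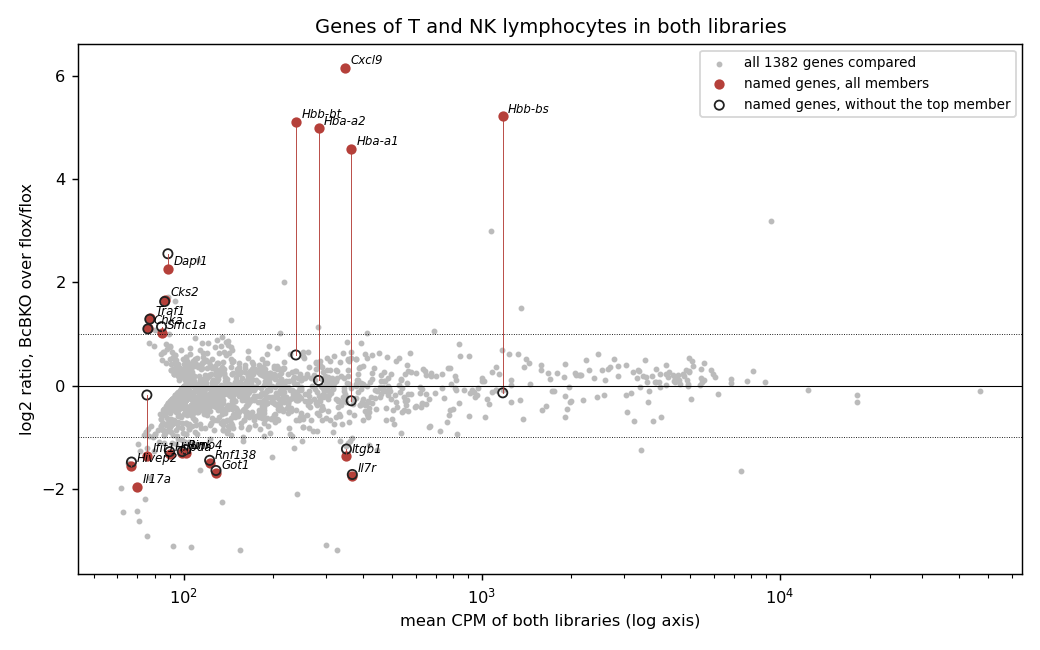
Log2 ratio of CPM plus 10, BcBKO over flox/flox (vertical axis), against the mean CPM of both libraries (log axis) for the 1382 genes compared (grey), with the named genes for all members (red) and without the cell that held most of their UMIs in each library (open circles). The haemoglobin genes move to within the dotted lines at 2-fold without that cell, while Il7r, Itgb1 and Dapl1 stay beyond them. Cxcl9 and Il17a have no open circle, since without that cell neither library had more than 3 of their UMIs.

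Genes of T-cell signalling were mostly lower in the library labelled BcBKO. Of 22 genes on the list 18 were compared, of which 17 were below 0 and 1 above. Over all genes 40.1% were above 0, or 58.8% with TMM scaling. The list had a median log2 ratio of -0.56 (-0.39 with TMM scaling), beside -0.10 over all genes (0.10 with TMM scaling). Ets1, a transcription factor that T-cell development needs, was lowest at 213 and 487 CPM (log2 ratio -1.16), and it was the 1 gene of the list past 2-fold. The receptor adaptor Lat had 251 and 427 CPM (ratio 0.587, 0.461 to 0.750). The costimulatory receptor Cd28 had 180 and 322 CPM (0.558, 0.421 to 0.743), and the kinase Lck 192 and 298 CPM (0.646, 0.486 to 0.864). Sh2d2a, an adaptor that binds Lck, had 97.4 and 185 CPM (0.526, 0.360 to 0.775). Coro1a and Ptprcap, at 848 and 902 CPM and at 401 and 399 CPM, were close to equal. Hcst, which encodes the adaptor DAP10 of NKG2D, had 367 and 705 CPM (0.521, 0.430 to 0.632).

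Cytotoxic granule genes were mostly too low to compare. Of 11 genes 3 passed the minimum, and all 3 were below 0, beside 40.1% of all genes above 0. Their median of -0.56 (-0.39 with TMM scaling) is the value of Nkg7 itself and is no finding. Nkg7, which the rule used, had 624 and 926 CPM, the granule protease Ctsw 271 and 447 CPM (ratio 0.606, 0.480 to 0.769), and Srgn, the proteoglycan core of granules, 924 and 1188 CPM (0.778, 0.678 to 0.893). The killing enzymes were scarce. Prf1 (perforin) had 4 and 2 UMIs, Gzmb 10 and 9, Gzmk 22 and 12 and Gzmm 7 and 8. Gzma had 45 UMIs in 1 member of the library labelled BcBKO, a cell without CD3 and with Ncr1, and 6 UMIs over 6 members of the flox/flox library.

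Cytokines and chemokines were led by Ccl5. Over all members Ccl5 (chr11:83525778-83530518, minus strand) was seen in 72 (45.0%) and 48 (65.8%), at 2032 and 4824 CPM, a log2 ratio of -1.24. The direction held in CD3-bearing cells (-1.64). The 11 and 3 members without CD3 had 9491 and 4092 CPM. With 3 such cells in the flox/flox library, no difference between libraries is read from them. Ifng was seen in 34 (21.2%) and 24 (32.9%) members at 228 and 334 CPM (log2 ratio -0.53), with 57 of 180 UMIs in 1 member of the library labelled BcBKO. Without the highest cells its log2 ratio was -0.92. Ltb, lymphotoxin beta, had 330 and 254 CPM (1.30, 0.985 to 1.74). Of the list's 14 genes 5 were compared, 2 above 0 and 3 below, beside 40.1% of all genes above 0. The list's median was -0.53, and it had the other sign in 3 of 12 alternatives. In the chemokine receptor list 3 of 13 were compared. Cxcr3 (-0.93) and Cxcr6 (-0.89), which marks lymphocytes that stay in tissue, were lower, and Cxcr4 (-0.01) was not. Of the tissue residency list 4 of 8 were compared, with Cxcr6 and Rgs1 (-0.67) lowest and Cd69 at 309 and 306 CPM.

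The few proliferation genes that could be compared were higher in the library labelled BcBKO, none by 2-fold. These were 4 of 10, all above 0, with a median of 0.59 beside 40.1% of all genes above 0 (58.8% with TMM scaling). Stmn1, which unmakes microtubules, had 247 and 141 CPM (ratio 1.75, 1.22 to 2.59), the tubulin Tubb5 518 and 338 CPM (1.53, 1.21 to 1.96), the histone H2afz 1087 and 725 CPM (log2 ratio 0.58), and Hmgb2 735 and 616 CPM (1.19, 0.997 to 1.44). Top2a, the mitotic topoisomerase, had 74.7 and 32.2 CPM (2.32, 1.10 to 5.62). Mki67 or Top2a was seen in 25 of 160 (15.6%) and 6 of 73 (8.22%) members, whose median depths were 7007 and 2495 UMIs. Thinned to 1000 UMIs the shares were 5.77% and 3.77%, and the part of depth was not tested. No cycling state is read from these UMIs.

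Genes of regulation and activation were mixed. Of the regulatory T list 3 of 7 were compared, and Tnfrsf4 (OX40, 101 and 52.3 CPM, ratio 1.93, 1.07 to 3.79) and the inhibitory receptor Ctla4 (143 and 88.6 CPM, 1.61, 1.02 to 2.68) were higher. Tnfrsf18 (GITR) was below 0, at 92.4 and 129 CPM (0.717, 0.467 to 1.12). Foxp3, the defining factor of regulatory T cells, was seen in 1 and 1 members. In T cells without CD8, Ctla4 had 285 and 127 CPM (2.24, 1.31 to 4.07). The difference lay in the 16 and 8 cells with Cd4, at 51 and 1 UMIs (694 and 49.3 CPM). In the 61 and 39 cells without either coreceptor, Ctla4 had 164 and 142 CPM, with an interval that included 1 (1.15, 0.625 to 2.24). Of Tnfrsf4's 80 UMIs in the library labelled BcBKO, 36 were in 1 cell. Among activation and inhibitory receptors 4 of 12 were compared, 2 on each side of 0. Icos had 88.6 and 157 CPM (0.564, 0.376 to 0.857), and Pdcd1 (PD-1), Lag3, Havcr2 and Tigit had 15 UMIs or fewer in each library.

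Most interferon and stress genes were below 0, as were most of all genes compared. Of 13 interferon and MHC class I genes compared, 2 were above 0 and 11 below. Over all genes 40.1% were above 0, or 58.8% with TMM scaling. The interferon median was -0.17 (0.0075 with TMM scaling), so its sign is not settled. Irf1, a factor that interferon induces, had 175 and 109 CPM (1.61, 1.06 to 2.52) and Ifi27l2a 702 and 447 CPM (1.57, 1.28 to 1.94). The class I heavy chains H2-K1 and H2-D1 were lower, at 1964 and 2392 CPM and at 1626 and 2227 CPM. Of 20 immediate-early and heat shock genes 4 were above 0 and 16 below, with a median of -0.31 (-0.14 with TMM scaling), beside 40.1% above 0 over all genes, and none was 2-fold or more lower. Nfkbia, the inhibitor that NF-kappaB induces, was the highest at 554 and 270 CPM (2.05, 1.59 to 2.70), and Tsc22d3, a glucocorticoid target, the lowest at 153 and 310 CPM (0.494, 0.368 to 0.666). Hspa1a and Hspa1b, which respond to cell handling, had 2480 and 3978 CPM and 2876 and 4611 CPM.

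Genes of respiration and secretion differed little. The nuclear oxidative phosphorylation list had 10 of its 12 genes above 0 and a median of 0.23 (0.41 with TMM scaling), beside 40.1% above 0 over all genes (58.8% with TMM scaling), led by Atp5o (183 and 105 CPM, ratio 1.75, 1.15 to 2.77) and Uqcrq (309 and 193 CPM). Of 8 genes of folding and secretion compared 6 were above 0, with a median of 0.15. No gene of either list was past 2-fold. The T-cell receptor complex had a median of -0.15 over 7 genes (0.03 with TMM scaling), and the NK list of -0.26 over 5 (-0.09 with TMM scaling, 0.08 with the mean of per-cell CPM). Fewer than 3 genes were compared for the coreceptors, type 17, type 2 and BAF subunit lists. Of these, Cd8b1 and Cd8a had log2 ratios of -0.37 and -0.20, Rora -1.13, Maf -0.56, Pbrm1 -0.40 and Arid1a -0.46.

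**Figure D5:**
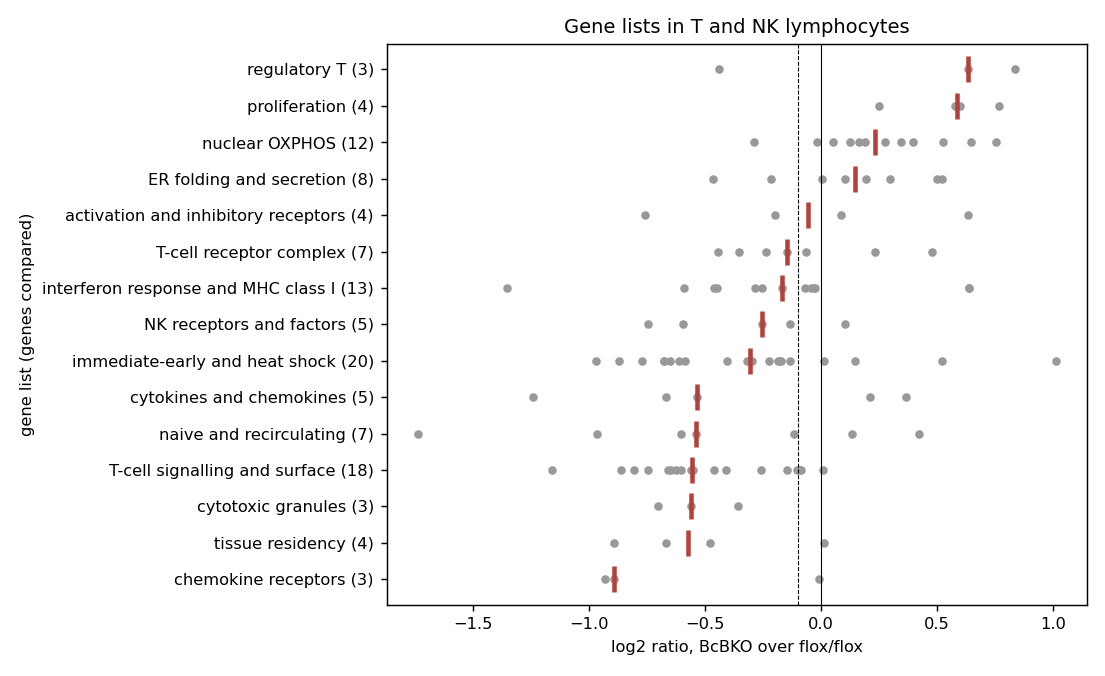
Log2 ratio, BcBKO over flox/flox (horizontal axis), of each gene compared (grey points) and the median (red bar) for the lists with 3 or more genes compared, whose number is in parentheses. The dashed line is the median of all genes compared, -0.10; most of the signalling list lies to its left and the proliferation list wholly to its right.

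The genes that most set members apart from the other kept barcodes were chosen by the same cells, so they describe the class and test nothing. By the lower ratio of both libraries they were led by Trbc1, Ms4a4b, Trbc2, Ifng, Ctsw and Cd8b1. Ms4a4b, a membrane protein of mouse T cells, was seen in 129 (80.6%) and 59 (80.8%) members at 688 and 809 CPM, against 0.722 and 0.333 CPM in the other kept barcodes. Ifng had 0.345 and 0 CPM there. Lat, Trac, Hcst, Cd2, Sept1, Ptprcap, Ly6c2, Ltb, Rac2, Ms4a6b, Cd69, Coro1a, S100a4 and Ccl5 made up the other 14 of the first 20. Ly6c2, which memory CD8 cells carry, was seen in 60 (37.5%) and 25 (34.2%) members, and in 47 of 72 and 16 of 23 CD8 cells. S100a4, a calcium-binding protein of memory T cells, had 261 and 628 CPM, in 56 (35.0%) and 42 (57.5%) members.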

How the data were processed

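For each of the 2 libraries the authors deposited whole-number UMI counts per gene and barcode, not normalised, of 28692 features. Per the submitters' processing notes, Cell Ranger 3.1.0 and Seurat 4.0.0 were used with mm10, while the file header names cellranger 6.1.2; which version made the counts is not settled. The notes do not say which annotation was used, and positions come from GENCODE M21 (GRCm38). Whether introns were counted is not given in the sources used here.

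Members and gene lists were chosen with earlier results of these data known. UMIs were summed over members per library and divided by their total to give CPM. Genes at 100 CPM or more in either library and 20 UMIs or more over both were compared as the log2 ratio of CPM plus 10. With 1 library per group there was no test. Intervals are at 95%: exact Poisson for CPM, exact conditional for ratios of CPM, and Clopper-Pearson for shares. A count of 0 allows 3 counts. Shares were thinned to 1000 UMIs as the expected hypergeometric share. Doublets were called per library by Scrublet (run through scanpy 1.11.5, with 8% as the assumed rate) and kept. It called 2.08% and 2.25% of barcodes, in the library labelled BcBKO and the flox/flox library. TMM factors came from edgeR 4.0.16 in R 4.3.3, and scipy 1.17.1, pandas 2.3.3 and numpy 2.4.6 under Python 3.11.15 did the rest, with figures from matplotlib 3.10.9. The interval and ratio code was tested on simulated data.

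Genes were named as the 10 highest and 10 lowest log2 ratios, the 20 genes with the highest ratio over other kept barcodes at 200 CPM or more, the receptor and subset lists, the extremes of the other lists, and Smarcd1, Smarcd2 and Smarcd3, though some of these are not reported here, and these were also left out of the lists and of the naive genes. The genes of the member rule, mitochondrial, ribosomal, Y-linked, Xist, hormone and acinar genes, unnamed gene models, and genes with over 5 times the CPM in another class of barcodes could not be named by size. Genes described within CD8 cells or cells without CD8, and Hcst, were chosen after values were seen, as were the UMI rules for the other classes of barcodes.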

Additional observations from a re-analysis of the deposited data

How the results depend on the processing

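No paired analysis was possible because each group is 1 library. The ratio of the shares stayed at or above 1.80 in all alternatives tried. Without the insulin limit, members were 1.96% and 0.991% of barcodes in the library labelled BcBKO and the flox/flox library, and of immune barcodes 18.4% and 10.2%. TMM scaling left 30 genes 2-fold or more lower. With no minimum level, 410 genes were higher and 340 lower, and the medians were -0.038 for regulatory T and 0.40 for cytokine genes. With the mean of per-cell CPM the cytokine median was 0.0067. In CD3-bearing members the NK median was -0.95 and the cytokine median -0.99. In the 11 and 3 members without CD3, 50 genes were higher and 25 lower, and the medians were 0.22 for signalling, 0.23 for cytotoxic, 1.56 for residency, 1.21 for cytokine, 0.26 for interferon, 0.10 for immediate-early and 1.61 for proliferation genes; Got1 (2.37), Hivep2 (1.62), Hilpda (3.75) and Ccl5 (1.21) changed sign there, with few UMIs. Without each gene's top member, a choice made after seeing the data, 35 genes were higher, and Hbb-bs (-0.14), Hba-a1 (-0.29) and Il17a (0.47, with 3 and 0 UMIs left) changed sign. Thinned to 1000 UMIs, CD8 was seen in 27.9% of members in the library labelled BcBKO, Ccr7 or Lef1 in 15.5% and 11.1%, Ccl5 or Cxcr6 in 40.8% and 67.4%, CD3 in 74.4% and 78.8%, and NK receptors in 5.85% and 9.83% in the library labelled BcBKO and the flox/flox library. The cause of these shifts was not tested. Of the other values for single genes, 27 moved by more than their counting interval and the rest did not. The pattern of naive genes without Ccl5 or Cxcr6 held in 31.2% to 32.9% of CD8 cells of the library labelled BcBKO and in 0 of those of the flox/flox library, also with 2 or more CD8 UMIs or without members rich in hormone RNA. Depth limits Cd4, Foxp3, the granzymes and the NK receptors, each seen in few cells.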

Other observations

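Several cytokines of polarised T cells came from single members, which were singled out after their values had been seen. In the library labelled BcBKO 1 member with 22421 UMIs held all 59 UMIs of Il13 and all 27 of Il5, cytokines of type 2 immunity, and 31 of 33 UMIs of Il2. It had 11 CD3 UMIs, 4 of Cd4 and 6 of Gata3, the factor of type 2 T cells, and also 63 of Cd74 and 36 of H2-Aa, MHC class II genes of antigen-presenting cells. The flox/flox library had no UMI of Il13 or Il5. Its Il17a, the cytokine of type 17 T cells, came from 1 member of 2143 UMIs with 29 of them, and in the library labelled BcBKO 15 of 18 came from 1 member of 3527 UMIs. Trdc was highest in 1 member of each library, with 5 and 11 UMIs, and the flox/flox cell also had 3 UMIs of Cd163l1 and 2 of Blk, known from gamma-delta T cells that make interleukin 17. The hormone RNA of members was as uneven. Of Gcg, 3935 of 13281 UMIs in the library labelled BcBKO were in 1 member, and of Sst, 2723 of 2793 UMIs in the flox/flox library were in 1 member.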
